A study of Arabidopsis thaliana with 27 samples.

Results

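The expression of 9 lectin genes was examined in leaves of *Arabidopsis thaliana* Col-0 that were wounded and treated with caterpillar oral secretions (OS). The genes were chosen by name from 2 families. The rule held no measured value, but the list was made with earlier results of these data known. The legume-type genes were LECa (AT3G16530) and LECb (AT3G15356). The jacalin-type genes were PBP1 (AT3G16420, also named JAL30), JAL31 (AT3G16430), JAL33 (AT3G16450), JAL34 (AT3G16460), JAL35 (AT3G16470, also named JR1), JAL22 (AT2G39310) and JAL23 (AT2G39330). Of the 9 genes, 6 had values among the 18899 genes of the expression table: LECa, LECb, PBP1, JAL34, JAL35 and JAL23. JAL31, JAL33 and JAL22 were not analysed here.

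Lectins are proteins that bind sugars without changing them. Legume-type lectins share the fold of the seed lectins of beans and peas, and in Arabidopsis soluble members are distinct from the receptor kinases that carry the same domain outside the cell. Jacalin-type lectins carry a domain named after the lectin of jackfruit seeds, often in several copies in a row, and many bind mannose. Several of them associate with PYK10, a beta-glucosidase stored in ER bodies, which are compartments derived from the endoplasmic reticulum that release the enzyme when tissue is damaged. JAL35 is annotated as a jasmonate-responsive gene, jasmonate being the hormone made on wounding.

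The leaves came from plants 5 weeks old. Pb OS leaves were pierced with 4 holes of 1 mm and received 2 µl of OS of *Pieris brassicae* per hole, Sl OS leaves received OS of *Spodoptera littoralis* on the same wounds, and W leaves received water. Each of these was sampled as discs of 1 cm at 3 h and at 24 h, and unwounded control leaves were collected once, with the 3 h samples. All groups thus shared genotype, age and tissue, and W is the comparison that holds wounding constant, while 24 h samples had no control of their own hour. There were 27 libraries, 4 per group and 3 for W at 3 h, where the study left out a further sample as an outlier. The libraries held 22.48 to 31.34 M reads on genes, with a median of 29.27 M. As background to every 3 h value, the summed level of 5 mesophyll marker genes was 11900 to 22500 CPM (read counts scaled to library size) with Pb OS and 6660 to 20000 with Sl OS, against 31300 to 40700 in W and 37300 to 59500 in control. The summed guard cell markers went the other way, at 62.3 to 99.5 CPM with Pb OS and 65.9 to 92.3 with Sl OS. They had 48.6 to 79.5 CPM in W and 39.4 to 57.3 in control. Phloem markers lay below control, at 268 to 402 CPM with Pb OS and 305 to 332 with Sl OS. They had 367 to 501 CPM in W and 439 to 592 in control. The part of these shifts in the lectin results was not tested. In whole discs a change in cells of a type and a change in RNA per cell cannot be told apart.

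The lectin genes lie mainly on chromosome 3. In the RefSeq annotation of TAIR10.1, LECa spans chr3:5624326-5625519 and LECb chr3:5174402-5175523, both on the minus strand. PBP1, JAL31, JAL33, JAL34 and JAL35 stand in a row between chr3:5579290-5599224, and JAL23 spans chr2:16419483-16422158 beside JAL22. LECa and LECb were identical in 735 of 816 aligned coding bases (90.1%), PBP1 and JAL31 in 89.0% and JAL22 and JAL23 in 86.9%. Near-identical copies can exchange reads. Yet no 150-base stretch of exon, the length of a read before trimming, of any of the 9 genes occurred elsewhere in the nuclear genome. The windows were genomic, began and ended in exon and could hold intron, and reads spliced across introns were not checked. At 50 bases, 18 of 1145 exon windows of LECa and 18 of 1073 of LECb were found elsewhere, and 20 of 1336 of PBP1. JAL34 and JAL35 lie on opposite strands and share 631 exon bases, which is 20.7% of the exon bases of JAL34 and 23.8% of those of JAL35. LECa shares 289 exon bases with AT3G16525 on the other strand. Whether counting used the strand is not given in the sources used here, so reads in these overlaps cannot be assigned to either gene with certainty.

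The 250 bases before the transcript start are shown for the 2 legume-type genes, which were called with OS and not with W at 3 h, and for 3 jacalin-type genes, which rose with every 3 h treatment. They are written 5′ to 3′ on the gene's strand, from RefSeq, TAIR10.1. The windows are chr3:5625520-5625769 (LECa, minus strand), chr3:5175524-5175773 (LECb, minus), chr3:5579040-5579289 (PBP1, plus), chr3:5592241-5592490 (JAL34, plus) and chr3:5599225-5599474 (JAL35, minus). Capitals mark TTGAC, the core of the W-box bound by WRKY factors, on either strand (GTCAA on the opposite strand).
LECa: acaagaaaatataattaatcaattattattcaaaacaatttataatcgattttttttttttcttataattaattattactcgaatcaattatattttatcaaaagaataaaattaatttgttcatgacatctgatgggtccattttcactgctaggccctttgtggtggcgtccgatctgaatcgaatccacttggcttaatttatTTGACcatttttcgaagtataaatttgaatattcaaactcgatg
LECb: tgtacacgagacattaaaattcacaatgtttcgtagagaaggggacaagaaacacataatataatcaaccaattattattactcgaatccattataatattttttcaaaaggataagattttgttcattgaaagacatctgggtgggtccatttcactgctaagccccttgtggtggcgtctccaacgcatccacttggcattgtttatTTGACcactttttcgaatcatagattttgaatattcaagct
PBP1: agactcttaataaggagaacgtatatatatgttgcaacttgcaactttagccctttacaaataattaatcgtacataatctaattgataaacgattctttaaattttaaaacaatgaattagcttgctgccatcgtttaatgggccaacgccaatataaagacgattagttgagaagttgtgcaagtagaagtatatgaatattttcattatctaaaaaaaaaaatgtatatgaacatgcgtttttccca
JAL34: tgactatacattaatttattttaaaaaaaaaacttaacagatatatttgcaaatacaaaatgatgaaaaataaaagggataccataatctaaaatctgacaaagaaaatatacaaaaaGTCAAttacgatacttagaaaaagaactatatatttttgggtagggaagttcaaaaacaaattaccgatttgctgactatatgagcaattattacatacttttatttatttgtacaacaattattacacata
JAL35: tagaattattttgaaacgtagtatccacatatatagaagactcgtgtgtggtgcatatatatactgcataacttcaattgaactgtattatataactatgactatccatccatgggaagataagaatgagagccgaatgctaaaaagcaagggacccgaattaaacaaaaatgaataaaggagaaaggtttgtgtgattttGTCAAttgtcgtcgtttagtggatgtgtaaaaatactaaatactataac

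LECa and LECb each held 1 TTGAC, starting 44 and 41 bases before the transcript start, in a stretch that the 2 sequences largely share. Over the window the 2 genes matched in 184 of 219 aligned bases (84.0%), and their longest common run was 15 bases, attattactcgaatc. JAL34 and JAL35 each held 1 TTGAC on the opposite strand, 132 and 49 bases before the start, and PBP1 and JAL23 held none. TTGAC occurred on either strand in 44.9% of 27443 windows of the same length, so its presence sets none of these genes apart. CACGTG, the G-box, and GCCGCC, the GCC box, were searched on both strands and were in none of the 6 windows, while 6.49% and 1.87% of all windows held them.

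At 3 h both legume-type lectins rose with either OS and were not called with wounding and water. LECa, annotated as induced by chitin oligomers, had 243, 233, 446 and 640 CPM with Pb OS, 403, 390, 615 and 854 CPM with Sl OS and 21.1, 57.9 and 84.1 CPM in W, against 17.3, 31.1, 52.2 and 51.1 CPM in control. Every OS library lay above every W and control library, and the W libraries overlapped the control. The log2 change against control was 3.36 ± 0.59 (SE) with Pb OS (10.3-fold, adjusted p = 0.000133) and 3.95 ± 0.59 with Sl OS (15.5-fold, adjusted p = 2.11e-05). With W it was 0.45, with a 95% interval of -0.90 to 1.81 (adjusted p = 0.831).

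LECb, the close copy of LECa, had 154, 183, 301 and 395 CPM with Pb OS, 350, 302, 478 and 629 CPM with Sl OS and 10.2, 38.5 and 53.2 CPM in W, against 7.86, 17.4, 28.0 and 34.3 CPM in control. Again no OS library overlapped W or control, and W overlapped control. The log2 change against control was 3.66 ± 0.65 with Pb OS (12.6-fold, adjusted p = 0.000155) and 4.47 ± 0.65 with Sl OS (22.2-fold, adjusted p = 1.66e-05). With W it was 0.57, with a 95% interval of -0.92 to 2.07 (adjusted p = 0.794). LECa and LECb appear among the genes the study displayed for their OS response, so their direction here is not independent evidence.

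All 4 measured jacalin-type lectins rose at 3 h with W and with either OS. JAL35 had the highest level, at 1630, 1680, 1170 and 789 CPM with Pb OS, 1890, 602, 1020 and 952 CPM with Sl OS and 851, 904 and 747 CPM in W, against 41.0, 69.6, 38.2 and 75.2 CPM in control. All treated libraries lay above all control libraries, and the treatments overlapped each other. The log2 change against control was 4.56 ± 0.37 with Pb OS (23.6-fold, adjusted p = 3.06e-08), 4.26 ± 0.37 with Sl OS (19.2-fold, adjusted p = 5.49e-08) and 3.88 ± 0.41 with W (14.8-fold, adjusted p = 3.58e-06).

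PBP1, whose product binds PYK10 and is annotated as aiding its assembly, had 155, 181, 137 and 62.1 CPM with Pb OS, 300, 82.7, 121 and 127 CPM with Sl OS and 126, 193 and 155 CPM in W, against 15.6, 17.3, 9.71 and 20.5 CPM in control. Its log2 changes were 3.03 ± 0.40, 3.20 ± 0.40 and 3.30 ± 0.43 with Pb OS, Sl OS and W. JAL34, annotated as a mannose-binding lectin, had 139, 149, 110 and 65.6 CPM with Pb OS, 217, 73.2, 97.6 and 97.8 CPM with Sl OS and 109, 120 and 107 CPM in W, against 14.6, 15.7, 9.03 and 15.6 CPM in control. Its log2 changes were 3.04 ± 0.28, 3.05 ± 0.28 and 3.04 ± 0.31 for the same treatments. For PBP1 and JAL34 no treated library reached down to the control libraries, and the largest adjusted p of the 6 values was 5.62e-05.

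JAL23 was the least abundant jacalin-type gene in control. It had 90.3, 130, 79.6 and 27.4 CPM with Pb OS, 166, 24.4, 75.8 and 79.6 CPM with Sl OS and 49.5, 125 and 49.4 CPM in W, against 1.55, 6.20, 1.77 and 6.06 CPM in control, where it held 29 to 214 reads. The groups did not overlap control, although the libraries within each group spread more than for JAL35. The log2 change against control was 4.48 ± 0.66 with Pb OS (22.3-fold), 4.46 ± 0.66 with Sl OS (22.1-fold) and 4.28 ± 0.72 with W (19.4-fold), with adjusted p of 2.37e-05, 1.93e-05 and 0.00083.

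**Figure D1:**
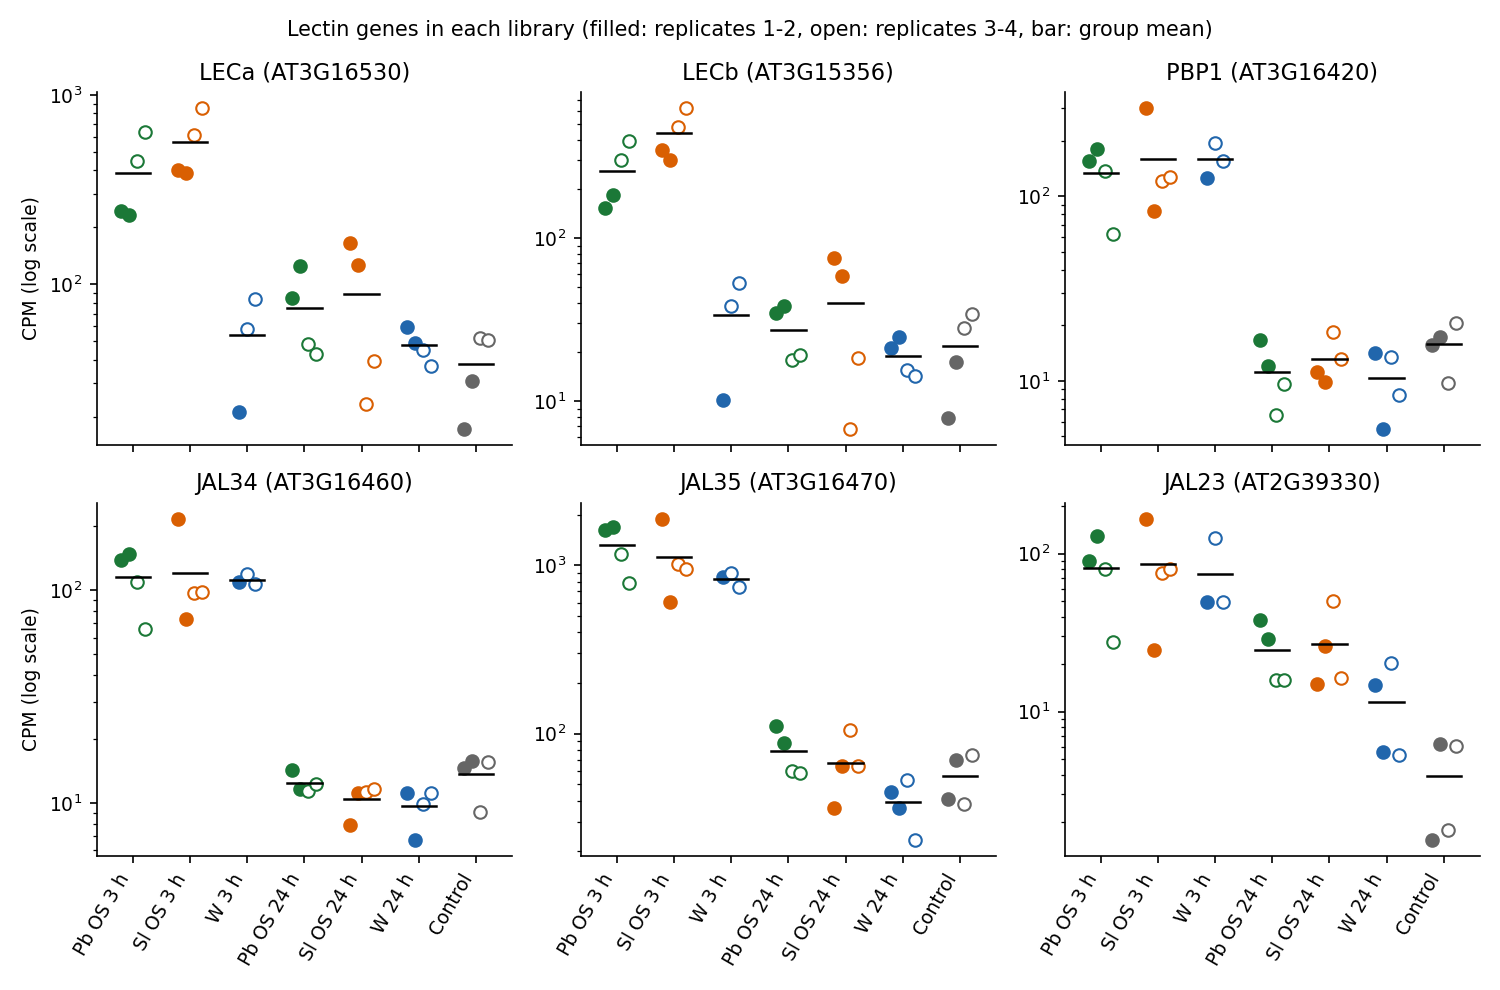
Each point is the CPM of a library on a log axis, by treatment and time, for the 6 lectin genes, and bars are group means. Filled points are replicates 1 and 2 and open points replicates 3 and 4, with the W 3 h replicates, labelled 1 to 3, shown as 1, 3 and 4. For LECa and LECb every Pb OS 3 h and Sl OS 3 h library lies above all other libraries, and for PBP1, JAL34 and JAL35 every treated 3 h library does.

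Counted over the list, 6 of 6 measured genes were called higher than control with Pb OS at 3 h and 6 of 6 with Sl OS at 3 h. A gene was called against control where its log2 change was beyond 1 in either direction and its adjusted p was below 0.05. Of all genes, 27.8% were called with Pb OS and 30.8% with Sl OS, and 13.4% and 14.5% were called higher. With W at 3 h, 4 of 6 were called, all of them jacalin-type, where 3.82% of all genes were called and 3.50% called higher. The median log2 change of the 6 genes was 3.51 with Pb OS, 4.11 with Sl OS and 3.17 with W, while the median of all genes was between 0 and 0.01. These comparisons share the control libraries, and the list was made with earlier results of these data known.

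**Figure D2:**
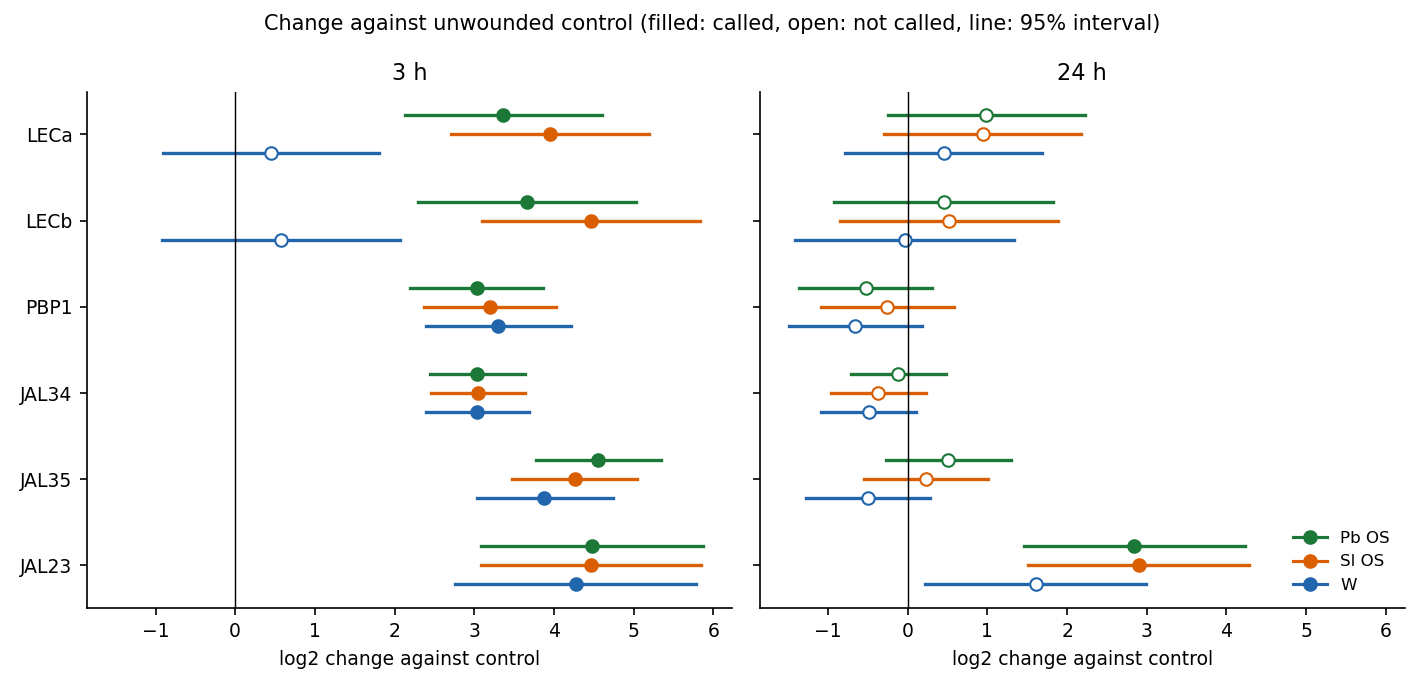
The log2 change against control is plotted for the 6 lectin genes at 3 h (left) and 24 h (right), with lines for the 95% interval and filled points for calls. At 3 h all Pb OS and Sl OS points are filled and W is filled for the 4 jacalin-type genes. At 24 h JAL23 with either OS is filled, at 2.84 and 2.90.

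In the direct comparison of OS with W at 3 h, LECa and LECb were called higher with either OS. LECa was higher than W by 2.91 ± 0.65 with Pb OS (7.53-fold, adjusted p = 0.00379) and by 3.50 ± 0.65 with Sl OS (11.3-fold, adjusted p = 0.000625). LECb was higher by 3.08 ± 0.72 with Pb OS (8.48-fold, adjusted p = 0.00492) and by 3.90 ± 0.72 with Sl OS (14.9-fold, adjusted p = 0.000599). These were the 2 of 6 genes called in either comparison, where a call between treatments required an adjusted p below 0.05 alone. The study had displayed both for their OS response, so this count is not independent evidence. Of all genes, 24.8% were called between Pb OS and W, with 10.6% higher, and 32.0% between Sl OS and W, with 13.9% higher. When the fit held the Pb OS and W libraries at 3 h alone, neither was called against W with Pb OS (log2 changes of 2.65 for LECa and 2.89 for LECb, adjusted p = 0.104 and 0.105).

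None of the 4 jacalin-type genes was called between OS and W at 3 h. Their log2 differences ran from -0.27 to 0.68 with Pb OS and from -0.10 to 0.38 with Sl OS. For JAL34 the difference was 0.00, with a 95% interval of -0.65 to 0.65, with Pb OS and 0.01, with an interval of -0.64 to 0.66, with Sl OS, so a difference of either OS from W beyond about 0.66 in size lies outside both intervals. For JAL35 the interval was -0.18 to 1.53 with Pb OS and -0.48 to 1.23 with Sl OS, and for PBP1 -1.18 to 0.64 and -1.01 to 0.81. For JAL23 it was -1.31 to 1.72 and -1.33 to 1.70, which leaves differences of more than 2-fold in either direction inside the interval.

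**Figure D3:**
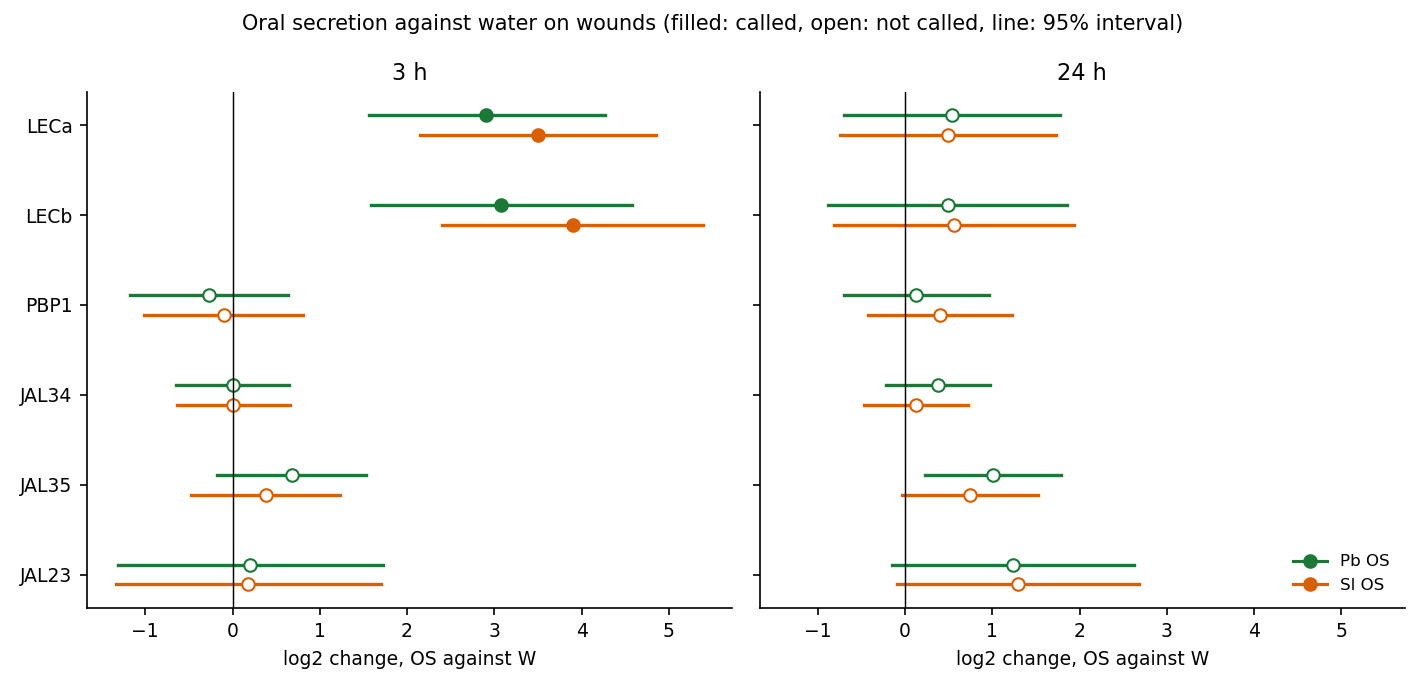
The log2 difference of each OS from W is plotted for the 6 lectin genes at 3 h (left) and 24 h (right), with lines for the 95% interval and filled points for calls. LECa and LECb are filled at 3 h, between 2.91 and 3.90, and no point is filled at 24 h.

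The OS of the 2 caterpillars gave no called difference in any lectin gene at either time. At 3 h Pb OS minus Sl OS was -0.59 for LECa, with a 95% interval of -1.83 to 0.65, and -0.81 for LECb, with an interval of -2.18 to 0.56. For the jacalin-type genes it ran from -0.17 to 0.30 at 3 h and from -0.27 to 0.28 at 24 h. In the whole table limma called 0 of 18899 genes (0%) between the 2 OS at 3 h and 0 at 24 h, with 783 and 691 genes at an unadjusted p under 0.05, none of them a listed lectin. limma with voom weights on the recovered reads also called 0 at both times.

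At 24 h JAL23 was the only gene of the 6 measured listed lectins called against control. With Pb OS and with Sl OS 1 of 6 genes was called, JAL23 in each case, where 1.79% and 2.75% of all genes were called, and 1.58% and 2.26% called higher. With W at 24 h limma called 0 of 6, where 1.55% of all genes were called, and JAL23 was the 1 lectin gene at an unadjusted p under 0.05. JAL23 had 38.3, 28.7, 15.8 and 15.8 CPM with Pb OS, 14.9, 26.2, 49.8 and 16.3 CPM with Sl OS and 14.7, 5.57, 20.3 and 5.29 CPM in W, against 1.55, 6.20, 1.77 and 6.06 CPM in control. The OS libraries lay above all control libraries, and the W libraries overlapped control. Its log2 change was 2.84 ± 0.66 with Pb OS (7.17-fold, adjusted p = 0.0257), 2.90 ± 0.66 with Sl OS (7.45-fold, adjusted p = 0.0152) and 1.61 ± 0.66 with W (3.04-fold, adjusted p = 0.285).

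The JAL23 calls at 24 h were lost when single libraries were left out. With Pb OS this held for control replicates 1 and 3 (log2 changes of 2.39 and 2.47) and for Pb OS replicates 1, 2 and 4 (2.60, 2.77 and 2.91). With Sl OS it held for control replicates 1 and 3 (2.44 and 2.53) and for Sl OS replicates 2 and 3 (2.90 and 2.52). With voom on recovered reads the adjusted p was 0.159 with Pb OS and 0.0882 with Sl OS.

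The PBP1, JAL34 and JAL35 libraries of every treatment overlapped control at 24 h. PBP1 had 6.51 to 16.6 CPM with Pb OS, 9.88 to 18.4 with Sl OS and 5.50 to 14.2 in W, against 9.71 to 20.5 in control. JAL34 had 11.4 to 14.3 CPM with Pb OS, 7.90 to 11.7 with Sl OS and 6.73 to 11.1 in W, against 9.03 to 15.7 in control. JAL35 had 58.2 to 111 CPM with Pb OS, 36.2 to 105 with Sl OS and 23.5 to 53.1 in W, against 38.2 to 75.2 in control. Their log2 changes against control ran from -0.66 to 0.51, and no such change was called.

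Between OS and W at 24 h limma called 0 of 6 lectin genes, where 0.0582% of all genes were called with Pb OS and 0.392% with Sl OS, and voom also called 0. The JAL35 libraries with Pb OS, at 111, 87.8, 59.9 and 58.2 CPM, lay above those in W, at 45.3, 36.2, 53.1 and 23.5 CPM. That difference was 1.01 ± 0.37 (2.02-fold) and had the only unadjusted p under 0.05 of the 12 lectin values at 24 h, at 0.0137, with an adjusted p of 1.0. JAL34 with Pb OS also did not overlap W, with a difference of 0.38 ± 0.28 and an unadjusted p of 0.199.

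The legume-type genes at 24 h depended on the replicate number. LECa had 84.5, 125, 48.7 and 42.7 CPM with Pb OS, 165, 127, 23.4 and 39.3 CPM with Sl OS and 59.4, 49.3, 45.3 and 37.3 CPM in W, against 17.3, 31.1, 52.2 and 51.1 CPM in control, replicates 1 to 4 in each. LECb had 34.6, 38.4, 17.8 and 19.2 CPM with Pb OS, 76.0, 58.6, 6.77 and 18.3 CPM with Sl OS and 21.3, 24.8, 15.6 and 14.2 CPM in W, against 7.86, 17.4, 28.0 and 34.3 CPM in control. In the treated groups at 24 h replicates 1 and 2 were higher than replicates 3 and 4, and in control they were lower. These are corrected values. In recovered reads the control pairs did not separate, at 612, 1038, 895 and 986 for LECa and 257, 540, 518 and 713 for LECb.

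The deposited values had been corrected for 2 batches, replicates 1 and 2 and replicates 3 and 4, by 1 shift per gene over both times, so differences were also taken within each pair of replicates. Within replicates 1 and 2, LECa at 24 h differed from control by 2.15 with Pb OS, 2.64 with Sl OS and 1.22 with W. Within replicates 3 and 4 the differences were -0.18, -0.77 and -0.33. For LECb they were 1.64, 2.51 and 0.97 within replicates 1 and 2, and -0.74, -1.48 and -1.06 within replicates 3 and 4. The pooled changes of 0.98 and 0.94 for LECa and 0.45 and 0.52 for LECb with Pb OS and Sl OS at 24 h thus averaged values of opposite sign, and none of them was called.

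At 3 h with OS the pairs of these genes had the same sign. LECa with Pb OS differed from control by 3.36 and 3.37 in the 2 pairs and with Sl OS by 4.09 and 3.81. LECb differed by 3.84 and 3.48 with Pb OS and by 4.80 and 4.14 with Sl OS. With W at 3 h replicates 1 and 2 are a single library. The differences from control were -0.14 and 0.44 for LECa and -0.19 and 0.55 for LECb, of opposite sign in the pairs. For LECa that W library, at 21.1 CPM, lay between control replicates 1 and 2, at 17.3 and 31.1 CPM. For LECb it lay at 10.2 CPM, between 7.86 and 17.4 CPM. The negative signs thus rest on control replicate 2, which has no W partner in this numbering. The pairs of the 4 jacalin-type genes had the same sign in every comparison of a 3 h treatment with control, with values from 2.71 to 5.13. JAL23 at 24 h was also positive in both pairs, at 3.42 and 2.27 with Pb OS, 2.67 and 3.12 with Sl OS and 1.55 and 1.66 with W.

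**Figure D4:**
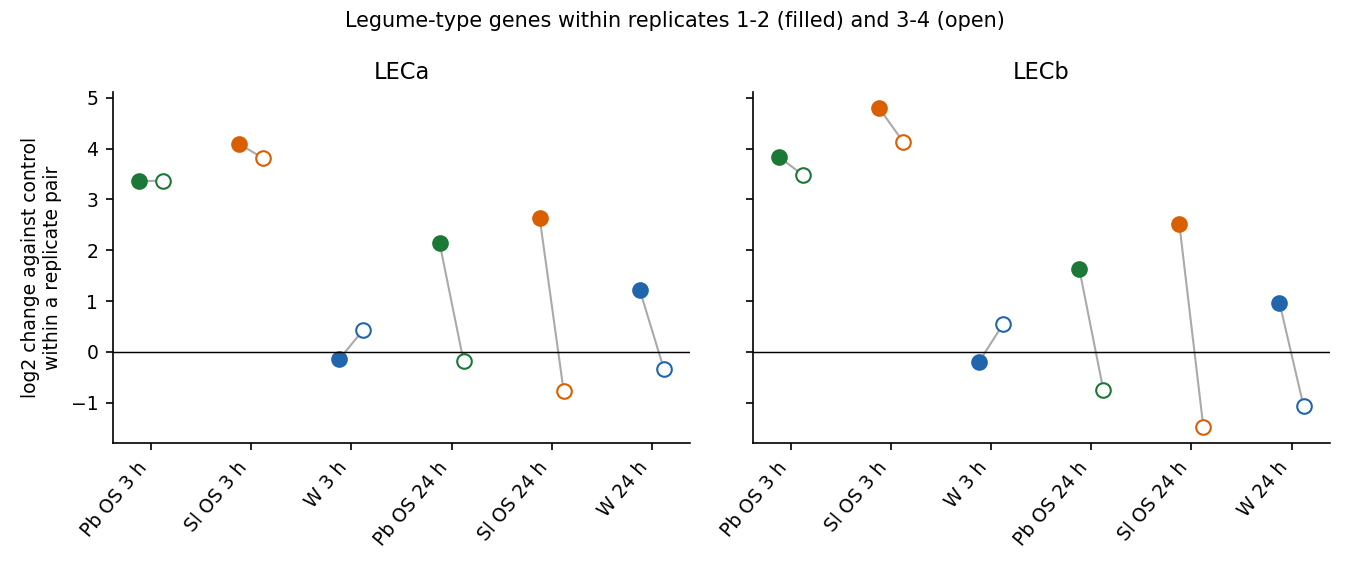
The log2 change against control is plotted for LECa (left) and LECb (right) within replicates 1 and 2 (filled) and within replicates 3 and 4 (open), for each treatment and time. At 3 h with OS the pairs lie together, between 3.36 and 4.80. At 24 h the filled points lie above 0 and the open points below 0 in all 3 treatments.

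The difference of OS from W was compared between the 2 times. For LECa the Sl OS difference was smaller at 24 h by 3.01 on the log2 scale (change of -3.01 ± 0.88, adjusted p = 0.0302), and for LECb the change was -3.33 ± 0.97 (adjusted p = 0.03). These were 2 of 6 lectin genes, where 14.0% of all genes were called and 5.60% called lower. With Pb OS the changes were -2.37 ± 0.88 for LECa (adjusted p = 0.107) and -2.59 ± 0.97 for LECb (adjusted p = 0.111), so limma called 0 of 6, with 2 at an unadjusted p under 0.05, and voom also called 0, where limma called 5.61% of all genes. For the jacalin-type genes the changes ran from 0.34 to 1.04 with Pb OS and from 0.12 to 1.11 with Sl OS, and none was called.

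These changes over time had the same sign in both replicate pairs, at -2.57 and -2.79 for LECa with Pb OS and -2.82 and -3.81 with Sl OS. For LECb they were -3.37 and -2.61 with Pb OS and -3.45 and -4.01 with Sl OS. With a separate batch term at each time, an alternative chosen after seeing the data, the Pb OS changes were -2.59 for LECa (adjusted p = 0.00245) and -2.84 for LECb (adjusted p = 0.00387). The Sl OS calls of both genes were lost without Sl OS replicate 3 at 3 h, without Sl OS replicate 4 or W replicate 1 at 24 h, and without the W library labelled 1 or 2 at 3 h, with LECa between -2.43 and -3.10 and LECb between -2.61 and -3.46. Without Sl OS replicate 3 at 24 h the call of LECa was lost (-2.46), and without W replicate 2 at 24 h that of LECb (-3.25).

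Within the 3 h OS groups the members of a family shared their highest or lowest library. With Sl OS at 3 h, replicate 1 was highest and replicate 2 lowest for all 4 jacalin-type genes, as in JAL35 with 1890 and 602 CPM and JAL23 with 166 and 24.4 CPM. With Pb OS at 3 h, replicate 4 was the lowest for all 4. The legume-type genes did not share this order: in the same Pb OS group replicate 4 was the highest for LECa and LECb, at 640 and 395 CPM, and with Sl OS replicate 4 was again the highest, at 854 and 629 CPM. These are points of the same libraries in corrected values, so the common order is a description. Across the pairs it can depend on the shift between replicates 1-2 and 3-4. Recovered reads are not scaled for library size. With Sl OS replicate 1 stayed highest in reads and replicate 2 lowest for PBP1 (8194, 2290), JAL34 (5138, 1761) and JAL23 (4342, 648). JAL35 had 44329, 14325, 46450 and 41069 with Sl OS, replicates 1 to 4, so replicate 3 was highest. With Pb OS replicate 4 stayed lowest for PBP1 (2421) and JAL23 (1112). It was not the lowest for JAL35, at 36156, 30056, 53238 and 35808 reads, or for JAL34, with 2692 in replicate 2 and 2943 in replicate 4. For LECa and LECb replicate 4 stayed highest with Pb OS (14146, 9416), but replicate 1 was highest with Sl OS (19407, 15647).

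Set side by side per kilobase of exon, JAL35 stood above the others of its family. With Pb OS at 3 h JAL35 averaged 497 ± 158 CPM per kb (SD, n = 4), LECa 327 ± 162, LECb 230 ± 99.1, PBP1 89.0 ± 34.0, JAL34 38.0 ± 12.2 and JAL23 37.9 ± 19.5. With Sl OS LECa averaged 474 ± 183, JAL35 421 ± 206 and LECb 392 ± 130, which lie within each other's spread. In W at 3 h JAL35 averaged 314 ± 30.1 CPM per kb (n = 3) and LECa 45.5 ± 26.5. In control the levels were LECa 31.7 ± 14.1, JAL35 21.1 ± 7.20, LECb 19.5 ± 10.4, PBP1 10.5 ± 3.02, JAL34 4.51 ± 1.04 and JAL23 1.80 ± 1.19 CPM per kb (n = 4), with the first 3 inside each other's spread. JAL23, lowest in control, was level with JAL34 at 3 h.

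To find genes with a like pattern, the root mean square (RMS) difference of the 6 log2 changes against control was taken between each lectin and every other gene. The 6 changes share the control libraries, and the measure is a description. LECa and LECb differed from each other by 0.42, and 13 genes outside the list were nearer to LECa. The nearest to LECa were UGT73B5 (AT2G15480, RMS difference 0.20) and UGT1 (AT1G05560, 0.23), both glycosyltransferases, and SAG21 (AT4G02380, 0.29), a late embryogenesis abundant protein of senescing leaves. The nearest to LECb were UGT1 (0.24), the transcription factor gene WRKY63 (AT1G66600, 0.28) and a U4 small nuclear RNA (0.30).

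PBP1 and JAL34 differed from each other by 0.22, and no gene outside the list was nearer to either. The jacalin-type genes with the widest range of group means were JAL35, at 5.06 on the log2 scale, and JAL23, at 4.48. Nearest to JAL35 were CSLA10 (AT1G24070, 0.47), a cellulose synthase-like gene, AT1G19550 (0.48) and AOC1 (AT3G25760, 0.48), an allene oxide cyclase of jasmonate synthesis. Nearest to JAL23 were TIFY5A (AT1G30135, 0.37), also named JAZ8 and a repressor of jasmonate signalling, AT3G11580 (0.44) and CYP707A1 (AT4G19230, 0.61), an enzyme of abscisic acid breakdown.

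Genes of the PYK10 complex and the ER body were also called higher at 3 h. Of 13 genes on this list 12 were in the table, and 12 of 12 were called higher than control with Pb OS at 3 h and with Sl OS at 3 h, and 7 of 12 with W at 3 h, set against the 13.4%, 14.5% and 3.50% of all genes called higher. The 12 include BGLU22 (AT1G66280), at 0.0485 to 12.8 CPM with Pb OS at 3 h, against 0.0249 to 0.0485 CPM in control. Its lowest Pb OS library thus did not exceed control, where the prior count makes up part of the value. The median log2 changes of the list were 3.32, 3.27 and 2.27 with Pb OS, Sl OS and W. The most abundant of these genes, BGLU18 (AT1G52400), an ER body beta-glucosidase of leaves, averaged 1810 ± 803 CPM with Pb OS, 1790 ± 1170 with Sl OS and 2750 ± 611 in W, against 190 ± 54.7 in control. TSA1 (AT1G52410), an ER body protein, averaged 192 ± 81.0, 202 ± 102 and 181 ± 44.2 CPM, against 26.6 ± 13.7 in control. Against W at 3 h, 6 of 12 were called higher with Pb OS and 5 of 12 with Sl OS, where 10.6% and 13.9% of all genes were. The differences of GLL22 (AT1G54000), a scarce gene with a mean of -2.60 log2 CPM over all libraries, where the prior count makes up part of the value, were 4.33 ± 0.66 with Pb OS (adjusted p = 0.000335) and 4.12 ± 0.66 with Sl OS (adjusted p = 0.000245). MVP1 (AT1G54030), a lipase-like protein, was higher than W by 0.67 ± 0.18 with Pb OS (adjusted p = 0.0133) and by 0.77 ± 0.18 with Sl OS (adjusted p = 0.00401).

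PYK10 itself, BGLU23 (AT3G09260), was scarce in these leaf discs. It was at 1.04 to 6.38 CPM with Pb OS and 0.666 to 2.25 CPM with Sl OS at 3 h and 0.202 to 0.401 in W, against 0.0247 to 0.165 CPM in control, where the prior count added by the authors makes up part of the value. It is also a root marker. Of 5 root markers 2 were in the table, BGLU23 and BGLU22 (AT1G66280), and both belong to this list, so their summed level of 1.89 to 14.4 CPM with Pb OS, 1.54 to 3.13 with Sl OS and 0.364 to 0.433 in W, against 0.0732 to 0.19 in control, is no separate measure of root tissue. At 24 h 2 of 12 genes of the list were called higher with Pb OS, AT4G27860 and AT1G54020, none with Sl OS, and 1 was called lower with W, NAI2 (-1.96 ± 0.36, adjusted p = 0.00454), where 1.58% of all genes were called higher with Pb OS, 2.26% with Sl OS and 1.55% called in either direction with W.

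Other jacalin-related genes were called in both directions. Of 42 listed, 9 were in the table, and 4 were called higher and 3 lower with Pb OS at 3 h, 4 higher and 2 lower with Sl OS and 2 higher and 0 lower with W. Of all genes, 13.4% were called higher and 14.5% lower with Pb OS, 14.5% higher and 16.2% lower with Sl OS and 3.50% higher and 0.323% lower with W. NSP1 (AT3G16400), a nitrile-specifier protein that carries a jacalin domain and diverts glucosinolate breakdown to nitriles, averaged 604 ± 200 CPM with Pb OS, 495 ± 230 with Sl OS and 198 ± 11.9 in W, against 28.3 ± 5.94 in control. It was called higher than W, by 1.59 ± 0.40 with Pb OS (adjusted p = 0.0079) and 1.25 ± 0.40 with Sl OS (adjusted p = 0.0227), which none of the 4 jacalin-type genes above was. JAL5 (AT1G52000) changed by 2.42 ± 0.56 with Pb OS (adjusted p = 0.00154) and 2.57 ± 0.56 with Sl OS (adjusted p = 0.000833). JAL3 (AT1G19715) fell with either OS, by 1.77 ± 0.22 with Pb OS (adjusted p = 3.96e-06) and by 1.89 ± 0.22 with Sl OS (adjusted p = 1.46e-06), with 33.7 to 52.2 CPM with Pb OS and 21.6 to 54.2 CPM with Sl OS, against 112 to 167 CPM in control. At 24 h 1 of 9 was called higher than control with Pb OS and 0 with Sl OS, where 1.58% and 2.26% of all genes were. With W 0 of 9 were called, where 1.55% of all genes were. The gene called with Pb OS was F-ATMBP (AT1G52030), at 2.32 ± 0.52 (adjusted p = 0.0203). It was also higher than W at 24 h with Pb OS, by 2.95 ± 0.52 (adjusted p = 0.0383), where 0.0582% of all genes were called.

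None of the other soluble legume-type genes was called higher than control or W at 3 h. Of 7 listed, 5 were in the table, and with each OS at 3 h 0 were called higher and 2 lower than control, AT3G09035 and AT3G09190, where 13.4% of all genes were called higher and 14.5% lower with Pb OS and 14.5% higher and 16.2% lower with Sl OS. Against W at 3 h, 0 were called higher, and 1 was called lower with Pb OS and 3 with Sl OS, where 24.8% and 32.0% of all genes were called. AT3G09035 averaged 5.13 ± 2.80 CPM with Pb OS and 4.13 ± 1.84 with Sl OS, against 13.2 ± 0.534 in control. LLP (AT5G03350), the most abundant of the list, was lower with Sl OS than in W at 3 h, by -1.34 ± 0.48 (adjusted p = 0.0389). Of 37 L-type lectin receptor kinases, which carry the legume lectin domain outside the cell, 26 were in the table, with 3 called higher and 5 lower with Pb OS at 3 h, 6 higher and 6 lower with Sl OS and 1 higher and 1 lower with W. The share of the kinases called, 8 of 26 with Pb OS and 12 of 26 with Sl OS, stands beside 27.8% and 30.8% of all genes. With W, 3.50% of all genes were called higher and 0.323% lower. LECRK17 (AT5G60270) rose by 1.71 ± 0.13 with Pb OS (adjusted p = 8e-09) and 1.85 ± 0.13 with Sl OS (adjusted p = 2.48e-09), and LECRK44 (AT4G02420) fell by 2.36 ± 0.47 (adjusted p = 0.000384) and by 3.12 ± 0.47 (adjusted p = 2.04e-05).

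**Figure D5:**
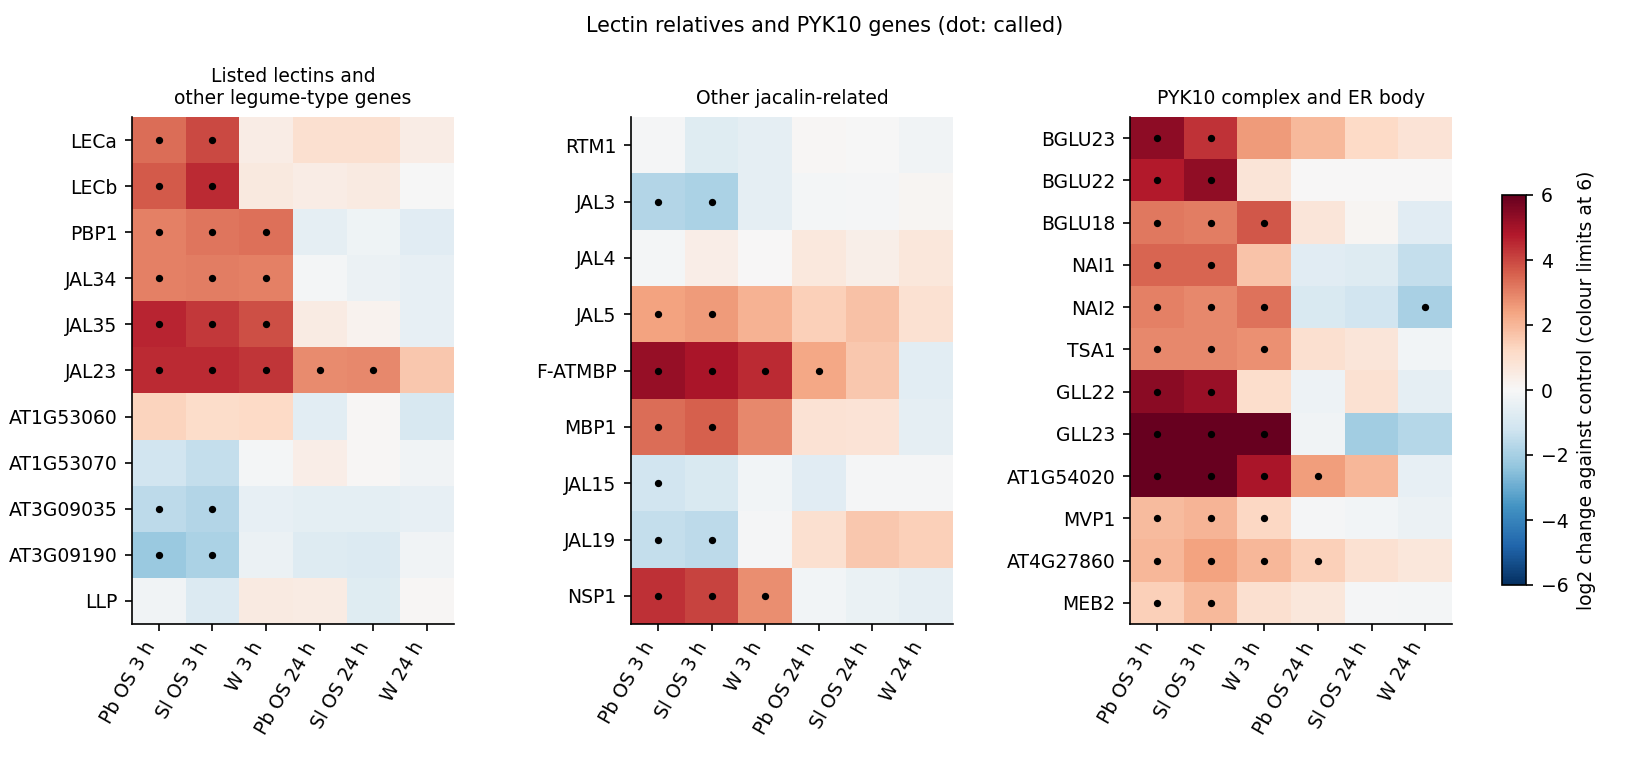
Colours give the log2 change against control, red for higher and blue for lower, in each treatment and time for the 6 lectin genes with other legume-type genes, for other jacalin-related genes and for genes of the PYK10 complex and ER body, and dots mark calls. All 12 PYK10 and ER body genes carry a dot with Pb OS and Sl OS at 3 h, and no other legume-type gene is called higher.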

How the data were processed

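RNA-seq was done on 27 libraries of leaf discs in 7 groups. The authors trimmed reads with Cutadapt 2.5, aligned them to TAIR10 with STAR 2.5.3a, counted them per gene with HTSeq 0.9.1, left out genes below 1 CPM in every sample, and deposited log2 CPM after TMM scaling, a prior count of 1 and removal of batch effects. The authors' second table holds their own fold changes and adjusted p-values and was not used.

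The log2 CPM of all 18899 genes were fitted with limma 3.58.1 in R 4.3.3, with a mean per group and the replicate number as a block of 4, as the study's methods describe 4 batches by replicate number. The block numbers the W 3 h libraries 1 to 3, as labelled. Pair values number them 1, 3 and 4, and a block so numbered changed no call. Tests were two-sided and p-values were adjusted by Benjamini-Hochberg within each comparison, so every adjusted p in the text is limma's. The fit was tested on simulated data. The study describes the replicates as independent, from separate batches of plants, of which 1 and 2 overlapped in the growth room, as did 3 and 4. After group means were removed, samples with the same number correlated on average at -0.046, -0.071, -0.041 and -0.033 for numbers 1 to 4. Single pairs ran from -0.47 to 0.58. The deposited batch correction and the removal of group means pull these averages down, so they do not test independence. Plain means over the 27 samples were equal for replicates 1-2 and 3-4 within 3.3e-09, with W 3 h numbered 1, 3 and 4, so the values hold a correction for 2 batches. A single shift per gene between these batches gave whole reads, within 0.02 reads, for 100% of genes. These reads gave the library totals and the voom alternative. CPM are the tabulated values taken back from log2, and their number of reads limits their precision.

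Sequences were read from RefSeq, TAIR10.1, by gene number, and all 9 matched. The rule for named genes was all listed lectins, the 3 genes of nearest pattern for LECa, LECb, JAL35 and JAL23, and at most 3 of the most abundant called genes per list and comparison. Genes singled out beyond this (BGLU23, BGLU22, GLL22, NAI2, AT4G27860, AT1G54020, F-ATMBP, AT3G09190 and LLP) were chosen with their values seen. The members and lists were chosen with earlier results of these data known.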

Additional observations from a re-analysis of the deposited data

Results flagged for a closer look

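JAL34 held the libraries that stood far from the rest of their group, among 36 groups of 4 values checked, where chance sets apart about 1 group in 20. In Sl OS at 24 h, replicate 1 was lowest at 2.98 log2 CPM (7.90 CPM), and the other libraries lay between 3.47 and 3.55. In control, replicate 3 was lowest at 3.18 log2 CPM (9.03 CPM), and the others lay between 3.87 and 3.97. These are corrected values, in which replicates 1 and 2 are shifted against replicates 3 and 4. In recovered reads JAL34 held 254, 257, 314 and 611 in control replicates 1 to 4, so replicate 3 was not the lowest. With Sl OS at 24 h it held 146, 205, 526 and 511 reads, so replicate 1 did not stand apart alone.

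The difference of Sl OS from W changed between 3 h and 24 h by -3.33 for LECb and by -3.01 for LECa on the log2 scale, by the test of that change in limma (adjusted p = 0.03 and 0.0302). The difference itself was 3.90 at 3 h and 0.56 at 24 h for LECb, and 3.50 and 0.49 for LECa.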

How the results depend on the processing

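The 24 called changes of lectin genes were recomputed 414 times, by 9 other settings and by leaving out each library of the groups compared. Of these values 385 stayed on their side of the threshold, 29 lost the call and 0 changed sign, and all 268 values of 3 h treatments against control kept their call. When the fit held only the groups compared, with the replicate block, 0 lectin genes were called in Pb OS 24 h against control, Sl OS 24 h against control, Pb OS 3 h against W 3 h and the Sl OS against W change over time. With voom on recovered reads 0 were called for Pb OS and for Sl OS against control at 24 h. With 2 batches at each time, added after seeing the data, 2 were called for the Pb OS change over time. The cause was not tested. Leaving out single replicates gave counts of 0 to 1 for either OS against control at 24 h, 0 to 1 for the Pb OS change over time (without Pb OS 3 h replicate 2, LECa was called at -2.68, adjusted p = 0.0441) and 0 to 2 for the Sl OS change. The fit with no replicate block changed no count, with 6, 6 and 4 genes called at 3 h against control.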
